A study of Bos taurus with 6 samples.

Results

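The genes described here run the calcium cycle of the sarcoplasmic reticulum, the internal calcium store of the muscle fibre. The list held 7 symbols, ATP2A1, ATP2A2, PLN, S100A1, RYR1, CASQ1 and CASQ2, and every probe set of a bovine Affymetrix array whose single gene symbol was one of these was taken. The array's annotation gave 11 such probe sets among 24128, for 4 of the 7 genes and of 9155 annotated gene symbols in all. They were 2 for the fast-fibre calcium pump ATP2A1, 4 for the slow-fibre pump ATP2A2, 3 for phospholamban (PLN) and 2 for S100A1. It gave 0 probe sets for RYR1, CASQ1 and CASQ2, which are not analysed here. All 11 probe sets passed the filter on dim signals, 10 of them with a present call on all 6 arrays and Bt.16296.1.A1_at of ATP2A2 through its calls at 24 months. Because the list was drawn up with the difference between the ages known, that difference is given for these probe sets as a description, with no p-value. The number called by the fit across all probe sets is printed beside the share called among all of them, and supports nothing.

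Pumps of the reticulum take calcium up from the cytosol of the fibre. A nerve impulse opens the ryanodine receptor, the stored calcium leaves to start contraction, and the pumps end it by taking the calcium back. Fast fibres mainly use the pump made from ATP2A1, while slow fibres and heart use that from ATP2A2. Phospholamban is a small membrane protein that slows the ATP2A2 pump until it is phosphorylated, and S100A1 is a small calcium-binding protein that modulates the ryanodine receptor and the pump.

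The muscle was longissimus dorsi, the long muscle of the back, of male Chinese Red Steppe cattle on a standard diet, and it was taken at an age of 1 month or of 24 months. Each of the 6 arrays held the mixed RNA of 3 bulls, with 3 pools for each age, so that differences between individual bulls cannot be seen. Replicate numbers follow the sample names and run from 1 to 3 for the calves and from 2 to 4 for the older bulls. The comparison asks how gene expression in the muscle of calves differs from that of older bulls. In these bulk samples fewer cells of a type and less RNA per cell cannot be told apart.

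Intensities are linear values that the authors normalized across the arrays, and with 3 arrays per age their number sets the precision. Differences are 24 months minus 1 month on the log2(intensity + 16) scale, with the standard error of the limma fit after ±. The share of probe sets called present was 48.9% to 52.5% in the calves and 54.8% to 56.4% in the older bulls. For actin the signal at the 3′ end over that at the 5′ end, a measure of RNA quality, was 0.66 ± 0.20 (log2, SD, n = 3) in the calves and 0.24 ± 0.02 (SD, n = 3) in the older bulls. It was highest, at 0.85, in 1-month replicate 1. Neither measure overlapped between the ages, with an exact permutation p of 0.1, two-sided, the smallest that 3 against 3 arrays can give. Age and RNA quality therefore cannot be fully told apart here.

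ATP2A1, the pump of fast fibres, differed between its probe sets. The brighter one, Bt.5848.1.S1_at, read 2402, 2755 and 2765 in the calves and 3210, 3193 and 3011 in the older bulls, in the order of the replicate numbers. The older bulls were higher on all 3 arrays, but by little: the means were 2641 ± 207 (SD, n = 3) and 3138 ± 110 (SD, n = 3), a difference of 0.25 ± 0.12. The dimmer one, Bt.5848.2.S1_at, read 131, 247 and 364 in the calves and 556, 878 and 615 in the older bulls. Its groups did not overlap either, and its difference was 1.49 ± 0.35, a ratio of mean intensities of 2.76. The calves varied more on this dimmer probe set, where the highest calf array was 2.78 times the lowest. With the actin ratio in the fit it gave -0.021 ± 0.36, and the brighter one gave 0.046 ± 0.23.

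ATP2A2, the pump of slow fibres, was higher at 24 months on all 4 of its probe sets, and 1 of them stood far from the other 3. Bt.16296.1.A1_at read 47.6, 63.9 and 84.6 in the calves and 864, 1372 and 1354 in the older bulls. The lowest older pool was 10.2 times the highest calf pool. This probe set was called present on all 24-month arrays but on 1 of the 3 1-month arrays. In the authors' table replicate 1 was absent (detection p = 0.0952), replicate 2 marginal (0.0562) and replicate 3 present (0.00415). The means were 65.4 ± 18.5 (SD, n = 3) and 1197 ± 288 (SD, n = 3), a difference of 3.89 ± 0.24 and a ratio of 18.3.

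The other ATP2A2 probe sets share the cluster number 1059 in their names and were called present on every array. Bt.1059.2.S1_at read 4008, 4185 and 3262 in the calves and 6642, 5511 and 6677 in the older bulls, a difference of 0.72 ± 0.15. Bt.1059.3.S1_a_at, whose name marks it as matching several transcripts of the gene, read 2941, 3676 and 2775 against 6655, 5771 and 6847, a difference of 1.04 ± 0.15. On both the older bulls lay above all calves, with ratios of means of 1.64 and 2.05. The dimmest of the cluster, Bt.1059.1.S1_at, read 191, 154 and 120 in the calves and 301, 228 and 298 in the older bulls, a difference of 0.78 ± 0.19. On each of the 3, replicate 3 was the lowest pool of both ages. The size of the ATP2A2 difference thus depended on the probe set, from 1.64 to 18.3 as a ratio of means. In a second deposited table of the same arrays the ratio was 24.5 on Bt.16296.1.A1_at and 1.08 to 1.85 on the other 3. With the actin ratio in the fit the difference was 3.13 ± 0.40 on Bt.16296.1.A1_at and 1.09 to 1.46 on the others. Which stretch of the transcript each probe set matches was not analysed here.

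PLN, the brake on the ATP2A2 pump, was higher at 24 months on its 3 probe sets. Bt.28162.1.S1_at read 547, 1243 and 1447 in the calves and 2259, 1829 and 2381 in the older bulls. The calf pools spread over 2.64-fold here, with replicate 1 far below the others, and the difference was 1.09 ± 0.35. Bt.28162.2.A1_at read 1212, 1326 and 1879 in the calves against 2958, 2456 and 3028 in the older bulls, a difference of 0.95 ± 0.20. Bt.28162.3.S1_at read 484, 830 and 1147 against 2432, 1843 and 2421, a difference of 1.50 ± 0.31. On all 3 the groups did not overlap, 1-month replicate 1 was the lowest calf pool and 1-month replicate 3 the highest, and 24-month replicate 3 was the lowest older pool. Ratios of means ran from 1.91 to 2.72. Without 1-month replicate 1 the differences were 0.67, 0.82 and 1.17. With the actin ratio in the fit they were -0.26 ± 0.46, 0.30 ± 0.30 and 0.28 ± 0.38.

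S100A1, the calcium-binding regulator, was low and even in the calves and high in the older bulls. Bt.1178.1.S1_at read 87.9, 108 and 95.6 in the calves and 1065, 1070 and 1536 in the older bulls. The lowest older pool was 9.88 times the highest calf pool. The difference was 3.44 ± 0.18, a ratio of means of 12.6. Bt.1178.1.S1_a_at shares its source sequence with the first and is no independent measure of the gene. It read 64.3, 68.9 and 65.4 in the calves and 676, 703 and 937 in the older bulls, a difference of 3.25 ± 0.16. Again the groups were far apart, with 24-month replicate 4 the highest, and the calf pools spread by 1.07-fold, the least of the 11 probe sets at that age. Both probe sets were called present on all 6 arrays. With the actin ratio in the fit the differences were 3.37 ± 0.38 and 3.24 ± 0.33. In the second deposited table after quantile normalization they were 3.69 ± 0.20 and 3.57 ± 0.22.

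**Figure D1:**
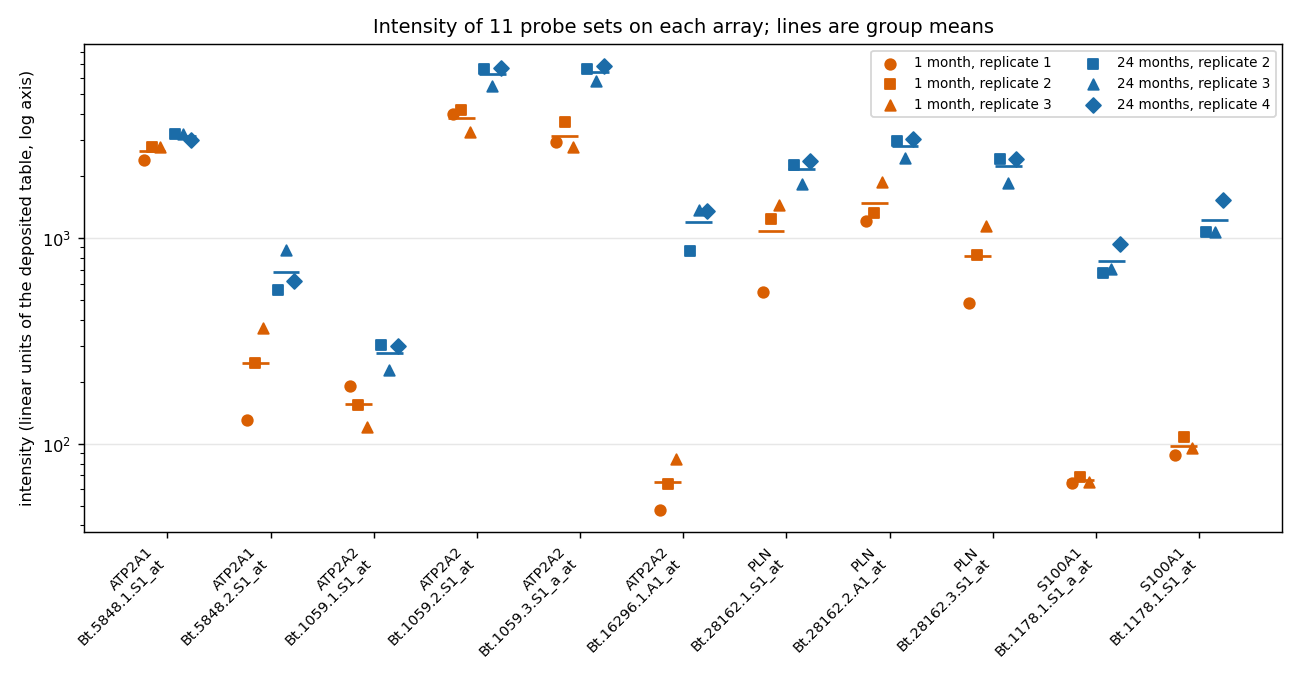
Intensity on a log axis (linear units of the deposited table) of the 11 probe sets of ATP2A1, ATP2A2, PLN and S100A1 on each of the 6 arrays. Orange marks are 1-month pools, blue marks 24-month pools, and short lines the group means; the ages lie apart on every probe set, the most on Bt.16296.1.A1_at of ATP2A2 (means of 65.4 and 1197) and on both S100A1 probe sets.

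Over the 11 probe sets the differences ran from 0.25 to 3.89 with a median of 1.09, while the median of all 13204 tested probe sets was 0.06. The older pools lay wholly above the calf pools on 11 of 11, against 27.2% of all tested probe sets in that direction. By limma 9 of the 11 were called as rises at an adjusted p under 0.05 and 0 as falls. Among all tested probe sets 19.0% were called, 14.0% as rises. The 2 not called were Bt.5848.1.S1_at of ATP2A1 and Bt.28162.1.S1_at of PLN. Since the genes were chosen on this same difference, nothing is read from these counts. Leaving out 1-month replicate 1, 2 or 3 brought the 9 to 10, 7 and 10, and leaving out 24-month replicate 2, 3 or 4 brought it to 4, 4 and 3. Among all 13204 tested probe sets the 2513 calls of the main fit became 2626, 2293 and 3476 without a 1-month array. Without a 24-month array they became 689, 586 and 526. Bt.16296.1.A1_at of ATP2A2 and both S100A1 probe sets were called in all 6 of these fits.

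In the second table the ratios were larger than in the main table for S100A1, Bt.16296.1.A1_at of ATP2A2 and Bt.28162.1.S1_at of PLN. They were smaller for the other members. The older pools lay wholly above the calf pools there on 7 of 11 probe sets, against 15.3% of all tested, as deposited and with no normalization added. The groups overlapped on Bt.5848.1.S1_at of ATP2A1, on Bt.1059.1.S1_at and Bt.1059.2.S1_at of ATP2A2, and on Bt.28162.2.A1_at of PLN. Ratios of means on these 4 were 1.02, 1.08, 1.30 and 1.12 in the second table, against 1.19, 1.78, 1.64 and 1.91 in the main one. The other PLN probe sets had ratios of 2.12 and 2.62 there, the dimmer ATP2A1 probe set 2.55, and those of S100A1 15.0 and 16.3 against 11.7 and 12.6 in the main one. In this table the actin ratio overlapped between the ages, at -0.24 ± 0.07 (log2, SD, n = 3) and -0.22 ± 0.05 (SD, n = 3), with an exact permutation p of 0.8. Its scale and normalization are unknown.

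**Figure D2:**
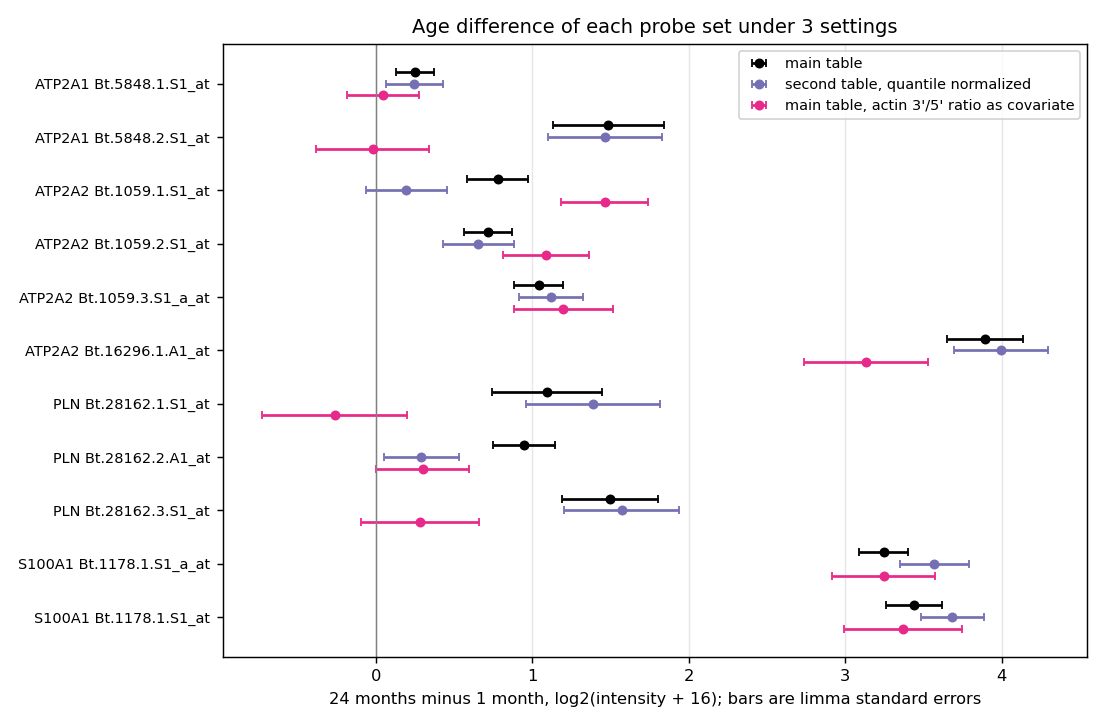
Difference between the ages (24 months minus 1 month, log2(intensity + 16)) of each of the 11 probe sets in the main table, in the second table after quantile normalization, and in the main table with the actin ratio as a covariate, with bars for the limma standard error. S100A1 and Bt.16296.1.A1_at of ATP2A2 lie above 3 in each of these, while the PLN points and Bt.5848.2.S1_at of ATP2A1 lie between -0.26 and 0.30 with the covariate.

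Within the ages the deviations of the probe sets did not all correlate positively. Each array's deviation from its age mean was correlated between probe sets, as a description over 6 arrays in which all values of an array share its pool and normalization. The PLN probe sets moved together (r = 0.77 to 0.97), as did those of S100A1 (r = 0.97) and of ATP2A1 (r = 0.81). The ATP2A2 probe sets of cluster 1059 had r = 0.46 to 0.87 among themselves. Bt.16296.1.A1_at, annotated to the same gene, had a negative r with all 3 of them (-0.78, -0.64 and a weak -0.26). With the dimmer ATP2A1 probe set it had r = 0.82. That ATP2A1 probe set in turn had r = -0.97 with Bt.1059.1.S1_at. On 8 of the 11 probe sets the lowest calf pool was 1-month replicate 1, which had the highest actin ratio, and on the 3 of cluster 1059 it was 1-month replicate 3. The part of RNA quality in these patterns within an age was not tested. The calves were the more variable age, with a larger coefficient of variation of the intensity than the older bulls on 9 of the 11 probe sets. The exceptions were those of S100A1, at 3.63% and 10.3% in the calves and 18.6% and 22.1% in the older bulls.

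**Figure D3:**
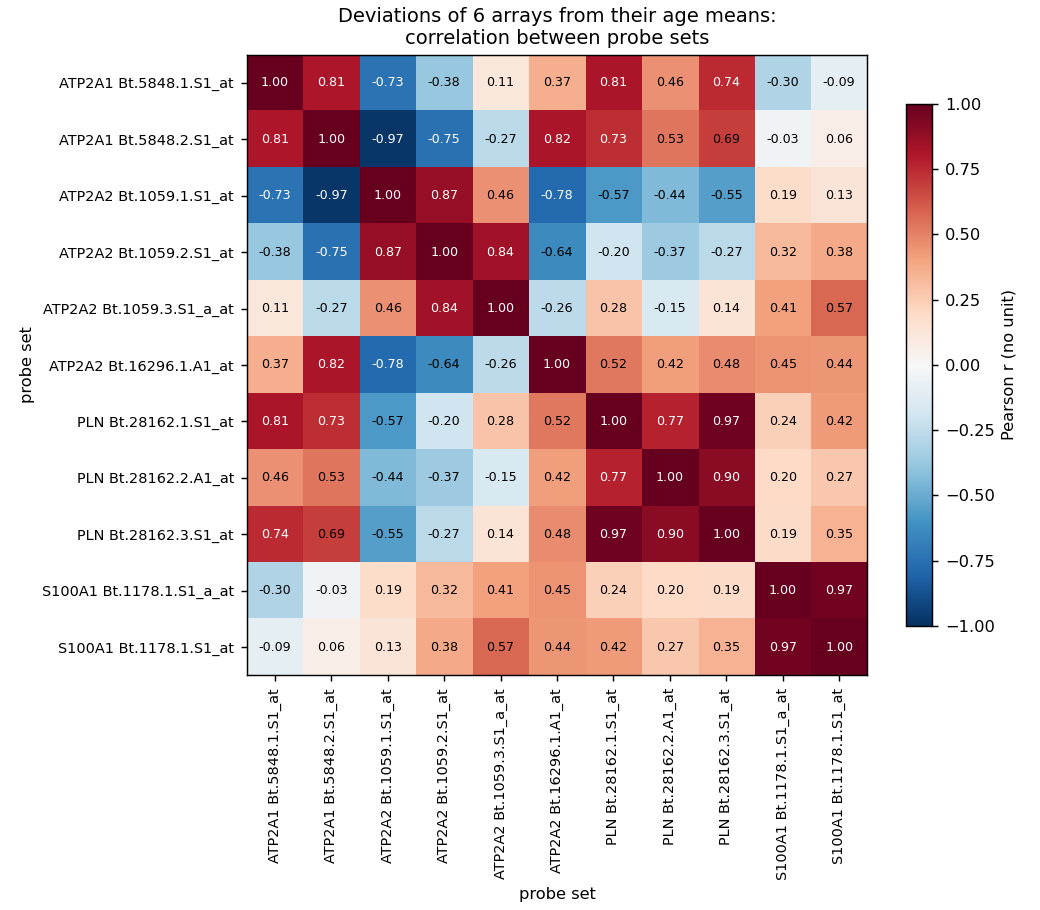
Pearson correlation (colour and printed value, no unit) between the 11 probe sets of the deviations of 6 arrays from their age means, with the probe sets listed by gene on both axes. PLN and S100A1 each form a block of positive values, and Bt.16296.1.A1_at of ATP2A2 is negative with the 3 other ATP2A2 probe sets.

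The genes whose log2 values ran most like the brightest probe set of each member were looked up among 6148 candidate probe sets with 1 gene symbol and a present call on all arrays, and 2 were taken per member. For ATP2A1 they were LPCAT3 (r = 0.997) and PFN1 (0.990), and for ATP2A2 RNPC3 (0.996) and NDUFA1 (0.992). PLN ran closest to AFTPH (0.994) and SMAD5 (0.992), and S100A1 to KMT2E (0.999) and BRMS1L (0.998). Each r covers the same 6 arrays in 2 age groups, so that any gene with a clear difference between the ages can reach a high value.

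The other genes of calcium handling came from a list of 68, of which 40 had a probe set by symbol and 34 were tested, each on its brightest tested probe set. By limma 14 rose, or 41.2%, and 3 fell, against 14.0% and 4.99% of all tested probe sets, and their median difference was 0.53. Of the 14, PPP3R1 and CACNA2D1 had no present call in the calves and passed the filter through the older bulls. Without such genes 12 of 32 rose and 3 fell. The ages did not overlap for 25 of the 34, against 43.4% of all tested probe sets in either direction. The 14 rises became 7, 5 and 5 without 24-month replicate 2, 3 or 4, and the 3 falls became 1 in each of these fits. Over all tested probe sets the 1854 rises became 567, 487 and 432 there, and the 659 falls became 122, 99 and 94. With the actin ratio in the fit 7 rose and 1 fell, and in the second table after quantile normalization 9 rose and 3 fell. These were partly other genes: 6 of the calls with the actin ratio and 11 in the second table were also calls of the main fit. With the actin ratio FKBP1A, STIM1 and HSP90B1, the 3 falls of the main fit, were not called. In the second table STIM1 was not among the falls. The calls of CAMK2D, CALM3, MYLK2, PPP3CB, BIN1 and FKBP1A held in all 6 fits with 1 array left out. By limma the calls of PPP3R1 and STAC3 were lost without 24-month replicate 3 or 4 (adjusted p of 0.0511 to 0.0597), and those of CAMK2G, HRC and STIM1 without any one 24-month array (0.0519 to 0.0995). Those of PPP3CA and HSP90B1 were also lost without 1-month replicate 2 (0.0780) and 1-month replicate 1 (0.0517), next to any one 24-month array (0.0951 to 0.154). The calls of CACNA2D1, CACNG6 and CACNB1 were lost without any one 24-month array (0.0504 to 0.113), and that of CACNB1 also without 1-month replicate 1 (0.0592).

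Cytosolic sensors and effectors, which read the calcium released from the store, rose in 7 of 8 tested genes, or 6 of 7 without PPP3R1. Among all tested probe sets 14.0% rose. CAMK2D, the delta chain of a calmodulin-dependent kinase, read 316, 320 and 359 in the calves and 893, 1050 and 1011 in the older bulls, a rise of 1.52 ± 0.13 (limma adjusted p = 0.00295). The gamma chain CAMK2G rose by 1.49 ± 0.25 (0.0113) on its brighter probe set and gave 0.69 ± 0.27 on the other (0.114). The calmodulin gene CALM3 rose by 1.10 ± 0.15 (0.00629) and MYLK2, a myosin kinase that calmodulin activates, by 1.60 ± 0.22 (0.00684). MYLK2 gave 1.69 ± 0.48 with the actin ratio in the fit and was not called (0.0838). Of the phosphatase calcineurin, the catalytic chains PPP3CB and PPP3CA rose by 1.10 ± 0.17 (0.00877) and 0.98 ± 0.27 (0.0486). A second PPP3CB probe set gave -0.34 ± 0.19 and did not pass (0.241), and in the second deposited table after quantile normalization the first gave 0.63 ± 0.21 (0.0852). The regulatory chain PPP3R1 read 36.9, 27.6 and 30.4 in the calves, with no present call, and 63.7, 94.2 and 84.5 in the older bulls. It was higher there by at least 2.02-fold on the log2(intensity + 16) scale (limma adjusted p = 0.0101), and was not called with the actin ratio in the fit (0.0918).

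Among release channels and their voltage sensor 4 of 7 genes rose and 1 fell, against 14.0% and 4.99% of all tested probe sets. Without CACNA2D1, which had no present call in the calves, 3 of 6 rose. FKBP1A, the immunophilin that binds the ryanodine receptor, read 1260, 1165 and 1003 in the calves and 577, 460 and 561 in the older bulls. It fell by 1.08 ± 0.15 (limma adjusted p = 0.00689), and with the actin ratio in the fit it gave -0.69 ± 0.26 (0.152). STAC3, an adaptor of the voltage sensor, rose by 1.16 ± 0.18 (0.00916) and gave 0.65 ± 0.24 in the quantile-normalized second table (0.113). It gave 0.70 with the actin ratio in the fit and was not called (0.220). The other rises, named after their values were seen, were the calcium channel subunits CACNB1, CACNG6 and CACNA2D1. These 3 were not called by limma with the actin ratio in the fit (adjusted p of 0.197 to 0.455). Of CACNB1 the other probe sets gave 0.24 ± 0.17 and -0.05 ± 0.15 and did not pass (0.365 and 0.823). ITPR1 was not called on its brightest probe set (0.49 ± 0.26, 0.227). Its other probe sets gave -0.04 to 0.55, and 1 of them was called.

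Other roles held fewer calls. In the triad and the membrane of the reticulum 1 of 7 rose, BIN1, which shapes the transverse tubules, by 0.96 ± 0.11 (limma adjusted p = 0.00478). That is 14.3% of the role, near the 14.0% of all tested probe sets. BIN1 was not called with the actin ratio in the fit (0.91 ± 0.23, adjusted p = 0.0627). In the second table it was called after quantile normalization (0.67, 0.0459) but not without normalization (0.47 ± 0.21, 0.182). In luminal storage and store refilling 1 of 6 rose and 2 fell, against 14.0% and 4.99% of all tested probe sets. ORAI1 was counted as not called on its brightest probe set (0.13 ± 0.26, 0.745), while its other one was called (0.68 ± 0.16, 0.0289). HRC, a calcium-binding protein of the lumen, rose by 0.90 ± 0.18 (0.0196) and gave 0.55 ± 0.30 in the quantile-normalized second table (0.263). STIM1, the sensor that opens calcium entry when the store empties, fell by 0.53 ± 0.11 (0.0229). With the actin ratio in the fit it gave -0.42 and was not called (0.275). In the quantile-normalized second table it gave 0.34 ± 0.21 instead (0.301). HSP90B1, a chaperone of the lumen, fell by 1.48 ± 0.35 (0.0294) and gave -0.55 ± 0.63 with the actin ratio in the fit (0.615). Of 3 other pumps and pump regulators ATP2B1, the calcium pump of the plasma membrane, rose on all 3 probe sets, by 1.23 ± 0.13 (0.00385), 1.14 ± 0.21 (0.0145) and, on the brightest, 0.69 ± 0.19 (0.0442). The call of the brightest was lost in every fit with 1 array left out (adjusted p of 0.0664 to 0.154) but the one without 1-month replicate 1. It was also lost with the actin ratio in the fit (1.19, adjusted p = 0.0759). SLN, sarcolipin, an inhibitor of the pumps named after its values were seen, gave 0.41 ± 0.19 and did not pass (0.168). SRI, likewise named after its values were seen, was lower at 24 months, by -1.20 ± 0.35 on its brightest probe set, and did not pass (0.0545). Its other probe set gave -0.20 ± 0.19 (0.492). Of 3 genes of mitochondrial calcium uptake 0 passed by limma and 0 had an unadjusted p under 0.05, with MICU2 at 0.23 ± 0.12 (0.219).

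**Figure D4:**
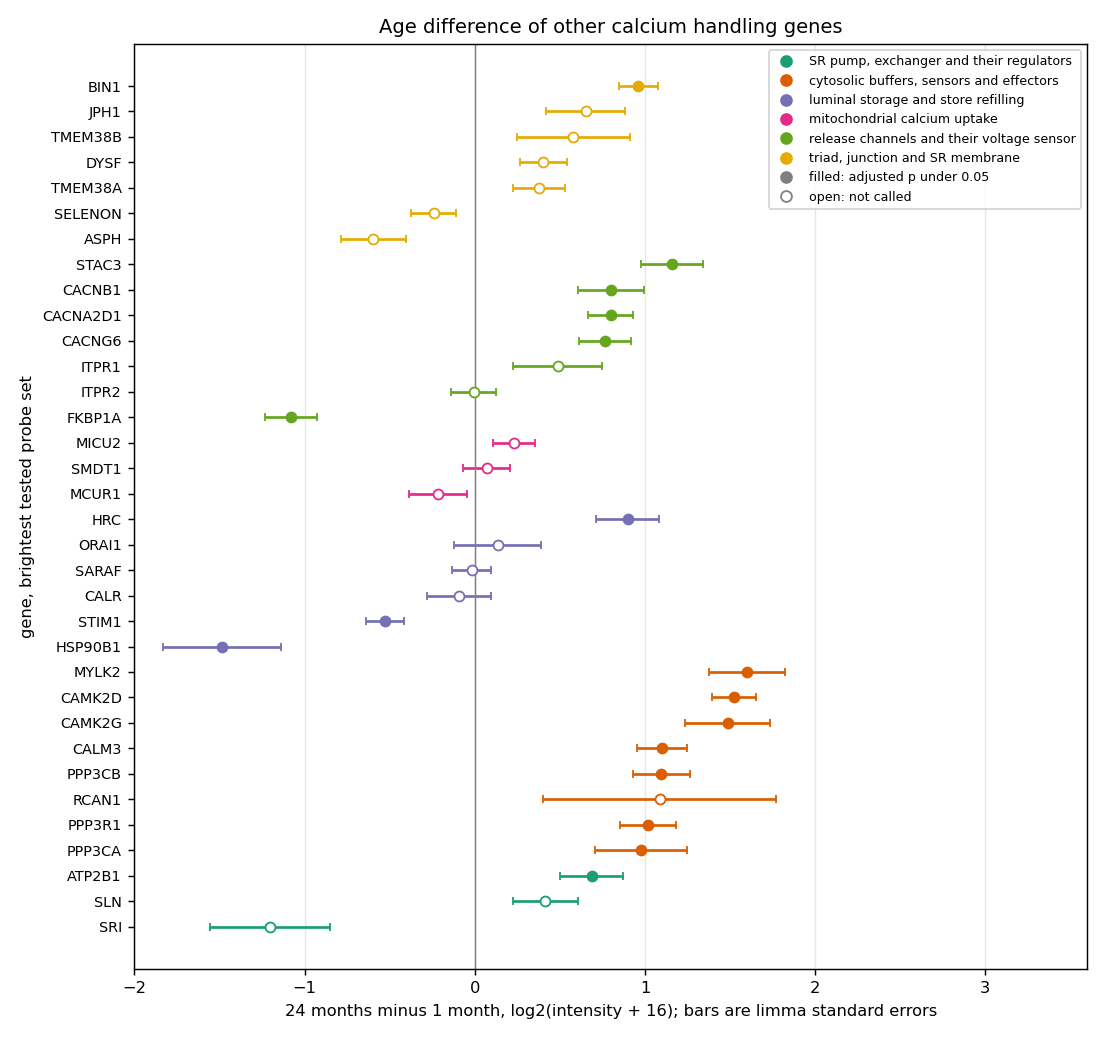
Difference between the ages (24 months minus 1 month, log2(intensity + 16)) of 34 calcium handling genes outside the 7, by role, with bars for the limma standard error and filled points for an adjusted p under 0.05. Of the 8 cytosolic genes 7 are filled and right of 0 (14.0% of all tested probe sets rose), while FKBP1A, STIM1 and HSP90B1 are filled and left of it.

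Markers of the cell types that carry these pumps were set beside the results. Of 7 slow fibre markers 2 rose (MYH7 and TNNT1), against 14.0% of all tested probe sets, and the summed intensity of the list was 26721 to 34344 in the calves and 41351 to 44784 in the older bulls. Of 6 fast fibre markers 2 rose (TNNT3 and ACTN3), with a sum of 44877 to 50508 against 57561 to 58611. By limma 0 of either list fell, also at an unadjusted p under 0.05, and all were called present on every array. Of the cardiac markers NPPA, TNNI3 and MYL4, 0 were called present on any array. Smooth muscle, which also makes ATP2A2 and PLN, had 1 rise (LMOD1) in 6 markers, with a sum of 1187 to 3104 in the calves and 1533 to 2111 in the older bulls. Blood had 2 falls in 4 tested markers (HBB and S100A8) with a sum of 742 to 3402 against 459 to 519. HBB was called present on all 3 calf arrays and on 0 older ones, so it passed the filter through the calves. Endothelium had 1 fall in 2 tested markers (PECAM1) with 513 to 673 against 392 to 436. Among all tested probe sets 4.99% fell. By limma 0 markers passed of 5 for fibroblasts, 2 for adipocytes and 1 for Schwann cells and nerve, with 1 fibroblast marker at an unadjusted p under 0.05. Their sums were 5654 to 15286, 185 to 2501 and 515 to 1098 in the calves against 4977 to 6220, 728 to 1046 and 896 to 991 in the older bulls. MBP, NEFL, LEP, ALAS2, S100A9, VWF and KDR were not called present on any array. The part of these cell types in the differences of the calcium genes was not tested.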

How the data were processed

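Muscle RNA of 6 pools was read on 1 array each. The main table carries the name of the program dChip. The authors deposited it as normalized intensity values with a call per probe set and, for the 1-month arrays, a detection p-value. A second deposited table holds intensity values of these arrays, with medians of 15.4 to 21.2. The sources used here give no version, normalization or method of the calls. Samples were grouped by the labelled age and columns matched by title.

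The test was limma 3.58.1 (lmFit and eBayes) in R 4.3.3 on log2(intensity + 16), 24 months minus 1 month, two-sided, with Benjamini-Hochberg adjustment over 13204 probe sets called present on at least 3 of 6 arrays. The 112 control probe sets were left out. Array medians lay within 0.0308 on the log2 scale, so no scaling was added. Fold changes on this scale understate dim probe sets. Every adjusted p comes from limma with the named setting. Only the main fit was run on simulated data, to check the size and sign of its differences. Probe sets with 1 symbol in the platform annotation (13292) were named. The 86 with several symbols and the 10638 with none were not. A gene without a present call at 1 age has a bound, the difference of the mean log2(intensity + 16) with each dim array at the higher of its own value and the array's lowest present value. For PPP3R1 the own values lay above that floor, which makes its bound the same number as its fitted change. No coordinates or sequences were used.

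The members, lists and rules were chosen with earlier results of these data known. Named genes are all member probe sets and, of the other calcium genes, the 10 largest rises, the falls, and the smallest p of each role. P-values measure the spread between pools.

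Alternatives were other normalizations, offsets of 1 and 50, other filters, the second table, the actin covariate, a replicate block, a trended robust fit and leaving out each array.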

Additional observations from a re-analysis of the deposited data

How the results depend on the processing

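The member probe sets stayed higher at 24 months under every setting they were tested in (Bt.16296.1.A1_at was not tested when presence on all 6 arrays was asked) except the actin covariate, where Bt.5848.2.S1_at of ATP2A1 gave -0.021 and Bt.28162.1.S1_at of PLN -0.26. STIM1 turned to 0.34 (quantile normalized) and 0.28 (not normalized) in the second table. The cause was not tested. Over all probe sets 1854 rose and 659 fell. The rises and falls were 655 and 341 with the actin covariate, 1016 and 625 in the second table after quantile normalization and 658 and 511 without it. Without the filter on dim probe sets 1269 fell, with more probe sets tested. The share of rises among calls was 73.8% in the main table and 61.9% and 56.3% in the second. With 1 array left out the rises ran from 432 to 2451 and the falls from 94 to 1025, lowest without 24-month replicate 4 and highest without 1-month replicate 3. Among the other calcium handling genes 14 rose and 3 fell. Their rises and falls were 7 and 1 with the actin covariate, 9 and 3 in the second table with quantile normalization, 5 and 2 without it, and 22 rises when every tested probe set was counted. Of the calls in the first 3 of these settings 6, 11 and 7 were also calls of the main fit in the same direction. Counting only genes with a present call at both ages, chosen after seeing the data, 12 rose and 3 fell. With 1 array left out the rises and falls of the 34 ran from 5 to 17 and from 1 to 4. Same-numbered pools of the ages did not deviate together (r = -0.18 for number 2 and 0.04 for number 3), so the numbers were not taken as pairs. With the replicate number as a block, which 2 of the 3 pools per age share and which leaves few degrees of freedom, 114 probe sets rose and 15 fell, and 0 of the other calcium handling genes rose or fell by limma, with 14 rises and 4 falls at an unadjusted p under 0.05. With this block S100A1 gave 3.09 and 3.20 and Bt.16296.1.A1_at of ATP2A2 3.62. Median centring, quantile normalization, offsets, presence on all arrays and the trended robust fit kept these counts within 1.5 times. Signal near background limits Bt.16296.1.A1_at at 1 month, where 1 array had a present call.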
